A study of Mus musculus with 3 samples.

Results

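The genes described here are 9 metalloproteases: Adamts1, Adamts2, Adamts4, Adamts5, Adamts9, Adamts12, Adam8, Adam12 and Adam17. They were taken by symbol from the 33696 genes of the deposited tables, and each of the 9 symbols matched 1 Ensembl gene. The 9 genes were chosen with earlier results of these data known. Their RNA was measured by single-nucleus RNA sequencing of the abdominal aorta in 3 libraries, 1 for each group, and every mouse was ApoE-/- on the C57Bl/6 strain and ate a high-fat diet. Mice of the room air library breathed room air, those of the smoke library breathed cigarette smoke and had no abdominal aortic aneurysm (AAA), and those of the aneurysm library breathed cigarette smoke and had one. Exposure and diet lasted 20 weeks. ApoE-/- mice lack apolipoprotein E, so they clear lipoproteins poorly and develop atherosclerosis in all groups, the room air group included. The sources used here give neither the age nor the sex of the mice, nor how many animals a library pools. With 1 library per group, no difference between groups has a replicate check and no p-value is given.

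The Adamts enzymes are secreted zinc proteases with thrombospondin repeats that bind them to the matrix. They are made as inactive precursors that furin-like convertases trim. Some of them (Adamts1, Adamts4, Adamts5, Adamts9) cut the large proteoglycans versican and aggrecan, others remove the amino-terminal propeptide of fibrillar procollagens (Adamts2), and Timp3 is the tissue inhibitor best known to block them. The Adam enzymes sit in the cell membrane and shed the outer parts of membrane proteins: Adam17 releases tumour necrosis factor and ligands of the EGF receptor, Adam8 is a protease of myeloid cells, and Adam12 cleaves IGF-binding proteins and heparin-binding EGF. In the wall of large arteries, proteoglycan breakdown and shedding are studied in atherosclerosis and aneurysm.

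Levels are CPM: the UMIs of a gene summed over all nuclei of a cell class in a library, per 1000000 UMIs of that class and library. A UMI is a molecular barcode that counts 1 captured RNA molecule. Wherever 3 values are listed, their order is room air, smoke, aneurysm. Values in brackets after a CPM or a fold are 95% intervals, exact Poisson for CPM and exact binomial for folds, and those after a share of nuclei are exact Clopper-Pearson intervals. All of them cover counting error only. After filtering, 30730 nuclei of 35396 barcodes remained, with 11022 in the room air library, 14001 in the smoke library and 5707 in the aneurysm library. Median depth was 4058.5, 6225 and 1443 UMIs per nucleus, and 26 to 46 barcodes were shared by any 2 libraries. The aneurysm library was therefore the shallowest, and shares of nuclei with a UMI are compared after each nucleus was thinned to 1000 UMIs. No doublets could be called, and all nuclei were kept. Each 1.5-fold difference of a member in a named class was recomputed under up to 16 other settings of filtering, clustering and summing. Where it fell under 1.5-fold this is given beside it. Differences of genes other than the 9 members were not recomputed under these settings. Clusters are named from their markers as "-like". Markers of the aortic wall were present: summed smooth muscle markers (Myh11, Acta2 and others) were at 6287, 6419.8 and 9126 CPM in smooth muscle-like nuclei and at 35.8, 38.8 and 97.2 CPM in macrophage-like nuclei. There were 496, 670 and 729 fibroblast-like, 391, 483 and 132 smooth muscle-like, 1876, 2111 and 1013 endothelial-like and 5342, 6193 and 1252 macrophage-like nuclei. Adipocyte-like nuclei numbered 38, 210 and 1250, so that class is compared only between the smoke and aneurysm libraries. Clusters 9 (led by Cemip, Tgfb2 and Notch3) and 11 (led by Fgf14 and Grem1) held 644, 907 and 207 and 601, 643 and 911 nuclei. They kept no cell type name and are given by number. Of the marker lists, that of smooth muscle scored highest in cluster 9 and that of fibroblasts in cluster 11. The smooth muscle-like and fibroblast-like classes therefore do not hold all nuclei with those markers.

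Adamts1 and Adamts9 are shown first by the sequence before their start sites, since both were measured in endothelial-like and in smooth muscle-like nuclei and the libraries are compared there. The sequences are the 250 bases before the RefSeq start in GRCm38.p6, written 5′ to 3′ on the strand of the gene, which is the minus strand for both. Capitals mark the letters TATAAA.
Adamts1 at chr16:85803114-85803363: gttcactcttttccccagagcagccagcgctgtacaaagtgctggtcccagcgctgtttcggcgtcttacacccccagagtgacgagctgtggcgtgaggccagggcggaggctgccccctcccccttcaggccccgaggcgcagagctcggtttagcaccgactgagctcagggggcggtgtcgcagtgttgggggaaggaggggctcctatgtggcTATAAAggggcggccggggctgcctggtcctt
Adamts9 at chr6:92943535-92943784: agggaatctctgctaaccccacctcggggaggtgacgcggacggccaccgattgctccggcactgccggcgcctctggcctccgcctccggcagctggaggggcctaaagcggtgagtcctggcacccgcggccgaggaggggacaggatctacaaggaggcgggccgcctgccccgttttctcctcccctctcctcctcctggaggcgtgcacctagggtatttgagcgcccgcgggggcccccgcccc
TATAAA stood 32 bases before the start of Adamts1 and was not in the window of Adamts9. Searched on the strand of the gene, these letters are in 7.59% of the 32851 promoters of the table. The AP-1 letters TGANTCA, found in 6.75% of promoters on either strand, and the cyclic AMP response letters TGACGTCA, found in 1.55% on either strand, were in neither window. GC content was 65.6% and 71.2%, against a median of 52.4% over all promoters. Of the 9 members, 6 had a promoter in the table (Adamts1, Adamts2, Adamts9, Adamts12, Adam8, Adam17), and the single match to any of the 3 motifs was that of Adamts1.

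The 9 genes fell into different parts of the aorta. Adamts2 and Adamts5 RNA was densest in fibroblast-like nuclei, Adamts9 in lymphatic endothelial-like nuclei and endothelial-like cluster 15, and Adam8 in macrophage-like nuclei. Adamts12 was highest in fibroblast-like nuclei and also high in adipocyte-like nuclei and in cluster 9. Adam12 was high in adipocyte-like nuclei, in cluster 9 and in endothelial-like nuclei. Adamts1 was spread over fibroblast-, smooth muscle-, endothelial- and lymphatic endothelial-like nuclei. Adam17 was found in every class, with its highest named class, macrophage-like nuclei, less than 3-fold above its lowest among the classes of the room air and smoke libraries. Adamts4 was scarce everywhere, with 171, 186 and 42 UMIs in the whole room air, smoke and aneurysm libraries.

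The libraries held different mixtures of cells, and the share of a gene's UMIs that came from each class differed between them. The largest source was the same in the 3 libraries for Adamts5, Adamts9, Adam8 and Adam17, and changed for Adam12 and Adamts12. Fibroblast-like nuclei held 48.1%, 40.9% and 67.1% of all Adamts5 UMIs, and endothelial-like nuclei held 47.1%, 40.9% and 50.9% of those of Adamts9. Macrophage-like nuclei held 85.8%, 84.2% and 65.5% of Adam8 UMIs and 68.7%, 64.5% and 34.9% of Adam17 UMIs. Adipocyte-like nuclei held 1.90%, 10.7% and 60.1% of Adam12 UMIs and 1.36%, 5.81% and 35.6% of Adamts12 UMIs. Cluster 9 held 40.5%, 53.6% and 10.1% of Adam12 UMIs and 46.0%, 44.1% and 13.9% of Adamts12 UMIs. Endothelial-like nuclei held 43.5%, 20.0% and 19.8% of Adam12 UMIs. Over all nuclei, Adamts1 was at 33.4, 53.3 and 83.8 CPM, and these totals move with the mixture as well as with the level inside a class. The classes are therefore described one at a time.

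Adamts1, a proteoglycanase that also cleaves versican, was higher in the smoke library than in the room air library in the main classes of the vessel wall. In smooth muscle-like nuclei it was at 83.7 (72.0 to 96.7) CPM in the room air library, 175 (163 to 188) CPM in the smoke library and 199 (155 to 252) CPM in the aneurysm library. Smoke was 2.09-fold higher (1.78 to 2.48) than room air, and the aneurysm and smoke intervals overlapped. Aneurysm was 2.38-fold higher (1.78 to 3.15) than room air and 1.38-fold higher at Leiden resolution 0.5. In fibroblast-like nuclei Adamts1 was at 143 (127 to 160.4) CPM in the room air library, 238 (223 to 253) CPM in the smoke library and 227 (203 to 253) CPM in the aneurysm library. There the smoke library was 1.66-fold higher (1.46 to 1.90) than the room air library, and aneurysm over smoke was 0.955 (0.839 to 1.08), an interval that includes 1. In endothelial-like nuclei the levels were 67.0 (63.0 to 71.2) CPM in the room air library, 121 (116 to 126) CPM in the smoke library and 125 (112 to 138) CPM in the aneurysm library, again with overlapping intervals for smoke and aneurysm, both above room air. There smoke was 1.80-fold higher (1.67 to 1.94) than room air, and 1.47-fold higher with the clusters weighted alike in every library. With the main settings the room air library was thus lowest in all of these classes. In fibroblast-like nuclei, aneurysm was 1.59-fold higher (1.35 to 1.87) than room air. That difference was under 1.5-fold in 4 of 16 other settings, and the ratio was 0.870 with the libraries clustered one by one.

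At 1000 UMIs per nucleus, Adamts1 was detected in 6.05% (3.78 to 9.10), 10.3% (7.64 to 13.4) and 16.0% (9.43 to 24.7) of smooth muscle-like nuclei, against 0.536% (0.353 to 0.779), 0.758% (0.551 to 1.02) and 1.18% (0.543 to 2.24) of macrophage-like nuclei, the class used here as background. The unthinned shares in smooth muscle-like nuclei were 14.8%, 30.6% and 22.0%, at median depths of 3528, 6299 and 1551 UMIs. Macrophage-like nuclei had median depths of 4342, 6902 and 1170 UMIs. In fibroblast-like nuclei the thinned shares were 8.51% (6.06 to 11.5), 14.6% (11.9 to 17.6) and 11.7% (8.87 to 15.1). Each class thus had its lowest thinned share in the room air library, as with the CPM.

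**Figure D1:**
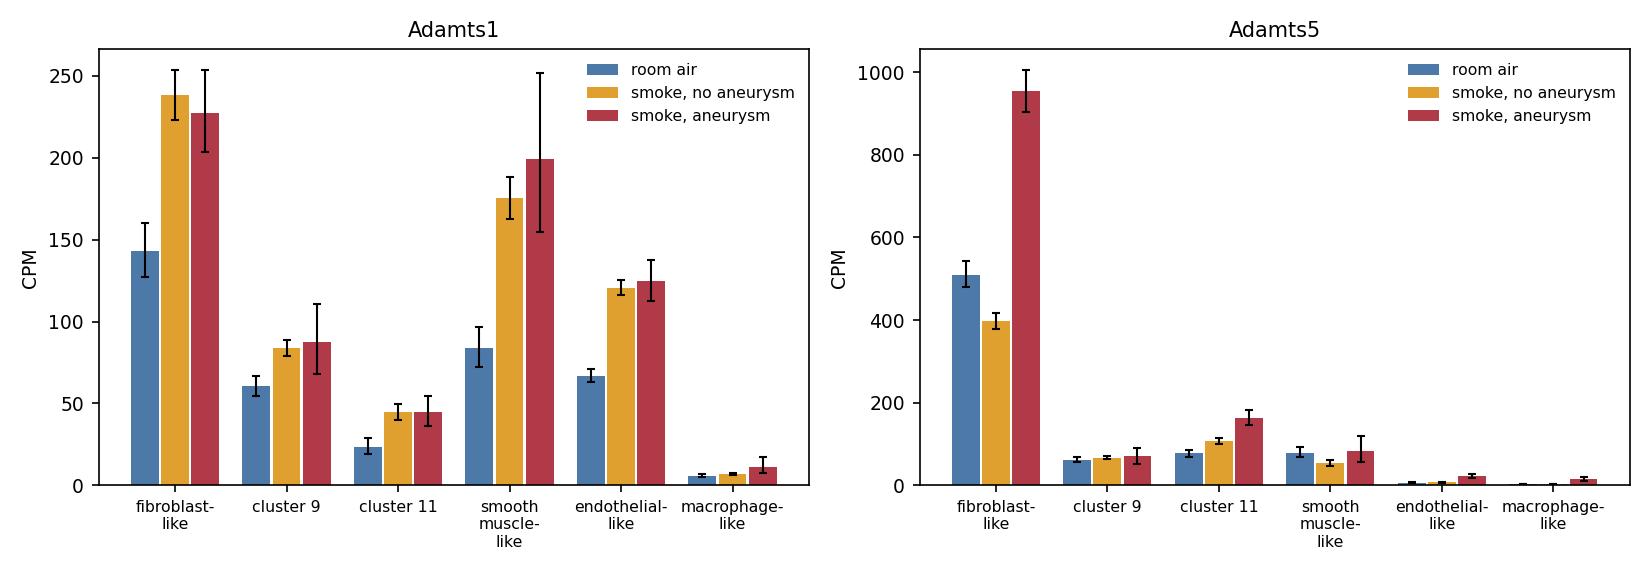
Adamts1 and Adamts5 in CPM (bars from 0, 1 bar per library, with 95% Poisson intervals) in fibroblast-, smooth muscle-, endothelial- and macrophage-like nuclei and in clusters 9 and 11. Adamts1 is lowest in the room air library in each of these units, and Adamts5 is highest in fibroblast-like nuclei of the aneurysm library.

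Within the endothelial-like nuclei, Adamts1 did not move the same way in each cluster. Cluster 6, led by Pgm5, Bmp6 and Edn1, was at 59.3, 118 and 93.9 CPM, and cluster 7 was at 33.8, 47.5 and 115 CPM. Cluster 15, led by Ccdc85a and Tll1, went the other way, at 534 CPM in the room air library, 326 CPM in the smoke library and 159.5 CPM in the aneurysm library. It was 1.64-fold lower (1.36 to 1.96) in smoke than in room air, and 2.04-fold lower (1.64 to 2.58) in aneurysm than in smoke. Without the nucleus with most Adamts1 UMIs in each library, smoke was 1.46-fold lower (1.18 to 1.79) than room air, under 1.5-fold. Cluster 15 held 69, 173 and 363 of the endothelial-like nuclei, and cluster 6 held 1158, 1146 and 423, so the class mean gives cluster 15 a larger weight in the aneurysm library. Beside these values, genes of immediate early response and heat shock, a sign of handling of the tissue as well as of signals in life, were higher in smoke than in room air for 9 of 13 listed genes in endothelial-like nuclei, with a median log2 ratio of 0.72 against 0.10 for all genes (Egr1 from 214 to 356 CPM), for 1 of 13 in fibroblast-like nuclei and for 1 of 12 in smooth muscle-like nuclei. Of all genes, 14.4%, 15.7% and 15.0% were at least 1.5-fold higher in these classes, in the same order. The part of the listed genes in the Adamts1 difference was not tested.

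Adamts5, the other main aggrecanase and versicanase of this set with Adamts4, was a gene of fibroblast-like nuclei, and its level there was highest in the aneurysm library. It was at 509.9 (479 to 542) CPM in the room air library, 398 (379 to 418) CPM in the smoke library and 953 (903 to 1005) CPM in the aneurysm library, and none of these intervals overlap. Aneurysm was 2.40-fold higher (2.23 to 2.58) than smoke and 1.87-fold higher (1.72 to 2.03) than room air, while smoke was 1.28-fold lower (1.18 to 1.39) than room air, under the 1.5-fold used here as the size of a difference. The thinned shares of nuclei with a UMI were 23.9% (20.0 to 28.2), 23.0% (19.7 to 26.5) and 30.9% (26.6 to 35.4), with unthinned shares of 42.1%, 43.7% and 32.1%, and the thinned share in macrophage-like nuclei was 0.457% (0.290 to 0.684), 0.379% (0.238 to 0.573) and 0.789% (0.290 to 1.71). The Adamts5 UMIs sat in few nuclei: 50% of them came from 18 of 496, 32 of 670 and 20 of 729 nuclei, and a single room air nucleus held 163. Intervals that treat UMIs as independent are therefore too narrow for this gene. When the libraries were clustered one by one, the aneurysm over smoke ratio fell to 1.27 and the aneurysm over room air ratio to 1.08, and neither reached 1.5-fold.

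Outside the fibroblast-like class, Adamts5 was also found in cluster 11, at 77.5, 107 and 164 CPM. There the aneurysm library was 1.53-fold higher (1.34 to 1.74) than smoke and 2.11-fold higher (1.81 to 2.46) than room air, but 1 of 911 aneurysm nuclei held 89 of the 355 UMIs. Without the nucleus with most Adamts5 UMIs in each library, aneurysm was 1.25-fold higher (1.08 to 1.44) than smoke, under 1.5-fold, and 1.68-fold higher (1.42 to 1.98) than room air. Smooth muscle-like nuclei were at 79.1, 54.6 and 83.6 CPM. Cluster 9 was at 61.8, 67.3 and 70.0 CPM, which is within 1.5-fold between any 2 libraries. In endothelial-like nuclei the level was low, 6.20, 7.04 and 22.2 CPM, and 3.16-fold higher (2.33 to 4.25) in aneurysm than in smoke. In the largest cluster of that class alone, aneurysm was 1.06-fold higher than smoke and 1.26-fold higher than room air, both under 1.5-fold. Lymphatic endothelial-like nuclei, which were too few in the room air library, were at 139 and 139 CPM in smoke and aneurysm.

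Adamts4, an aggrecanase that is induced by inflammatory cytokines in cartilage, was near the limit of counting. In fibroblast-like nuclei it had 23, 28 and 3 UMIs, or 11.3, 6.91 and 2.09 CPM. Smoke over room air was 0.614 (0.341 to 1.12), an interval that includes 1. The aneurysm value rests on 3 UMIs: aneurysm over smoke was 0.302 (0.0588 to 0.979) and aneurysm over room air 0.186 (0.0357 to 0.614). In endothelial-like nuclei there were 74, 55 and 20 UMIs, or 4.73, 2.77 and 6.54 CPM. Smoke was 1.71-fold lower (1.19 to 2.47) than room air there, and aneurysm was 2.36-fold higher (1.34 to 4.01) than smoke, with 3 nuclei holding 50% of the aneurysm UMIs. The first of these was lost in 3 of 15 other settings, down to 1.14-fold lower in the largest cluster of the class alone, where the second was 1.47-fold higher. Cluster 9 was at 8.71 and 4.30 CPM for room air and smoke, where smoke was 2.02-fold lower (1.36 to 3.01). Smooth muscle-like nuclei of the aneurysm library gave 0 Adamts4 UMIs, which allows up to 8.65 CPM.

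Adamts9, a secreted versicanase, was found in endothelial-, lymphatic endothelial-, smooth muscle- and adipocyte-like nuclei, and in the first 2 of these it was higher in the aneurysm library than in the smoke library. Over all endothelial-like nuclei it was at 50.9 (47.4 to 54.6) CPM in the room air library, 79.9 (76.1 to 84.0) CPM in the smoke library and 299.7 (281 to 319.7) CPM in the aneurysm library. The aneurysm library was 3.75-fold higher (3.45 to 4.07) than smoke and 5.89-fold higher (5.35 to 6.48) than room air. At 1000 UMIs the share of nuclei with a UMI was 3.42% (2.62 to 4.37), 4.62% (3.76 to 5.61) and 18.4% (15.7 to 21.4), against 0.179% (0.0817 to 0.339), 0.172% (0.0826 to 0.316) and 1.18% (0.543 to 2.24) of macrophage-like nuclei. The unthinned endothelial-like shares were 8.53%, 12% and 28.5%, at median depths of 5915, 8302 and 1821 UMIs. Both measures put the aneurysm library highest.

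The clusters show what makes up that mean. Cluster 15, which Adamts9 itself helped to define, was at 1310.4, 912 and 921 CPM, so its level was not higher in the aneurysm library, while the cluster held 69, 173 and 363 nuclei. In cluster 7, led by Dkk2, Adamts9 was at 21.6 CPM in the room air library, 26.8 CPM in the smoke library and 443 CPM in the aneurysm library, a value 16.5-fold higher (12 to 23.0) in aneurysm than in smoke. Cluster 6 was at 23.6, 28.3 and 61.1 CPM, with aneurysm 2.16-fold higher (1.75 to 2.66) than smoke. Cluster 19, led by Pkhd1l1, had too few aneurysm nuclei and was at 21.0 and 42.9 CPM for room air and smoke. The smoke over room air difference of the class, 1.57-fold higher (1.44 to 1.71), was not shared by the clusters: smoke was 1.44-fold lower (1.28 to 1.61) than room air in cluster 15 and 2.04-fold higher (1.38 to 3.11) in cluster 19. It was under 1.5-fold in 7 of 16 other settings. With the clusters weighted alike in every library, the ratio was 0.841. That weighting was chosen after seeing the data.

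**Figure D2:**
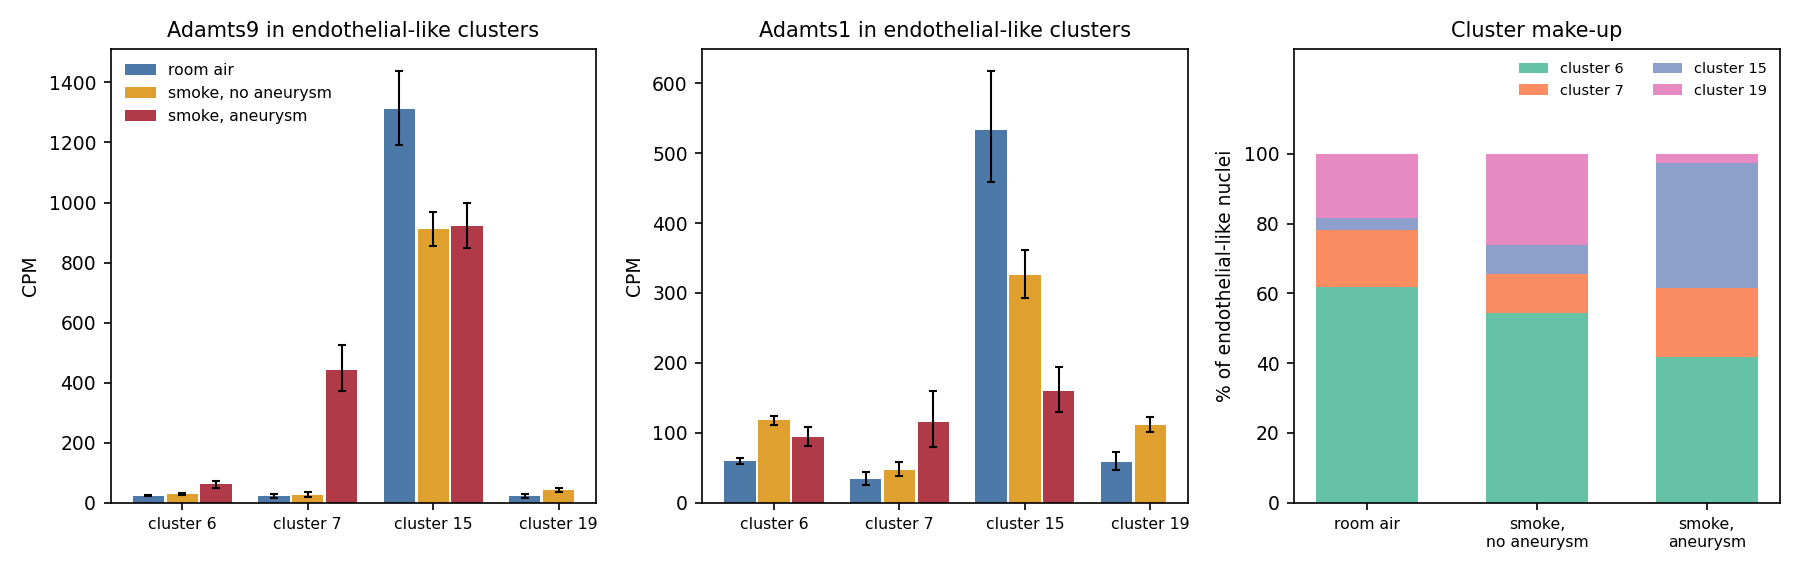
Adamts9 and Adamts1 in CPM, with 95% Poisson intervals, in endothelial-like clusters 6, 7, 15 and 19, beside the percentage of each library's endothelial-like nuclei that fell in each cluster. Adamts9 in cluster 7 stands high in the aneurysm library alone, and cluster 15 takes its largest share of nuclei there.

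Lymphatic endothelial-like nuclei also carried Adamts9, at 271 (213 to 340.1) CPM in the smoke library and 1332 (1140.3 to 1547) CPM in the aneurysm library. That is 4.92-fold higher (3.72 to 6.55), from 69 and 70 nuclei, and the thinned shares of nuclei with a UMI were 9.68% (3.63 to 19.9) and 54.8% (38.7 to 70.2). In smooth muscle-like nuclei Adamts9 was at 90.1 (77.9 to 104) CPM in the room air library, 149 (137 to 161) CPM in the smoke library and 144 (107 to 190.0) CPM in the aneurysm library, with smoke 1.65-fold higher (1.40 to 1.95) than room air and the aneurysm interval overlapping that of smoke. At Leiden resolutions 0.5 and 2 the smoke difference fell under 1.5-fold, to 1.22-fold higher at the least, and the aneurysm over room air difference, 1.60-fold higher (1.15 to 2.19), was under it in 5 of 15 other settings. Fibroblast-like nuclei stayed between 36.8 and 43.2 CPM and cluster 9 between 59.8 and 62.1 CPM in the 3 libraries. Adipocyte-like nuclei were at 129 and 156 CPM in smoke and aneurysm, 1.21-fold higher (1.03 to 1.42), under the 1.5-fold size.

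Adamts2, the procollagen N-proteinase, was high in fibroblast-like nuclei in every library, and in smooth muscle-like nuclei it was lower in the smoke and aneurysm libraries, a difference that depended on the clustering. In smooth muscle-like nuclei it was at 311 (288 to 335) CPM in the room air library, 160.1 (148 to 173) CPM in the smoke library and 147 (109 to 193) CPM in the aneurysm library. The smoke library was 1.94-fold lower (1.74 to 2.17) than room air, and the aneurysm library was 2.12-fold lower (1.59 to 2.87) than room air, while the smoke and aneurysm intervals overlapped. At Leiden resolutions 0.5 and 2 both fell under 1.5-fold, to 1.25-fold lower for smoke and 1.12-fold lower for aneurysm at the least. Thinned shares of nuclei with a UMI were 20.7% (16.6 to 25.4), 13.3% (10.3 to 16.8) and 10.0% (4.90 to 17.6). The unthinned shares, 44.2%, 44.3% and 21.2%, do not show the smoke difference, at depths that differ as given above. In fibroblast-like nuclei Adamts2 was at 967 (925 to 1011) CPM in the room air library, 670.0 (645 to 696) CPM in the smoke library and 747 (703 to 793) CPM in the aneurysm library, so that room air was again highest, but smoke was 1.44-fold lower (1.36 to 1.53) and aneurysm 1.29-fold lower (1.20 to 1.40) than room air, both under 1.5-fold.

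Cluster 9 was at 644, 505 and 401 CPM of Adamts2, and cluster 11 at 312, 267 and 323 CPM. In cluster 9 the aneurysm library was 1.60-fold lower (1.43 to 1.80) than room air, and cluster 11 kept its level within 1.5-fold. In adipocyte-like nuclei Adamts2 was at 78.9 CPM in smoke and 25.5 CPM in aneurysm, which is 3.09-fold lower (2.29 to 4.21), but 1 smoke nucleus held 66 of the 156 smoke UMIs. The difference was under 1.5-fold after thinning and in the largest cluster of the class alone, at 1.36-fold lower at the least. Of 6 listed procollagens that the enzyme can process (Col1a1, Col1a2, Col3a1 and others), 5 were measured in fibroblast-like nuclei. None of them differed by 1.5-fold in any of the 3 comparisons in that class. In smooth muscle-like nuclei 3 of 5 were lower in aneurysm than in smoke, a comparison in which 25.1% of all genes were lower.

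Adamts12, a protease known to cleave cartilage oligomeric matrix protein, was within 1.5-fold between libraries in fibroblast-like nuclei, and in cluster 9 and smooth muscle-like nuclei it was highest in the aneurysm library, by an amount that depended on the settings. In fibroblast-like nuclei it was at 517 (487 to 549) CPM in the room air library, 453 (432 to 474) CPM in the smoke library and 406 (374 to 441) CPM in the aneurysm library, and the thinned shares of nuclei with a UMI were 28.7% (24.5 to 33.2), 28.4% (24.8 to 32.1) and 29.3% (25.1 to 33.8). In cluster 9 the levels were 374 (359 to 389.7) CPM in the room air library, 266 (257 to 275) CPM in the smoke library and 400.1 (357 to 446) CPM in the aneurysm library, with aneurysm 1.5-fold higher (1.34 to 1.69) than smoke and room air between them. Without the nucleus with most Adamts12 UMIs in each library, aneurysm was 1.44-fold higher (1.28 to 1.62) than smoke there, under 1.5-fold. In smooth muscle-like nuclei Adamts12 was at 89.2 (77.1 to 103) CPM in the room air library, 67.0 (59.3 to 75.4) CPM in the smoke library and 144 (107 to 190.0) CPM in the aneurysm library. Aneurysm was 2.15-fold higher (1.56 to 2.92) than smoke there, from 50 aneurysm UMIs of which 1 nucleus held 15. At Leiden resolutions 0.5 and 2 it was under 1.5-fold, 1.11-fold higher at the least, and the aneurysm over room air difference, 1.62-fold higher (1.16 to 2.22), was under it in 5 of 15 other settings, down to a ratio of 0.893. The thinned shares in that class, 8.36% (5.67 to 11.8), 3.93% (2.35 to 6.14) and 7.0% (2.86 to 13.9), overlap.

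Adipocyte-like nuclei carried Adamts12 at 231 (209.9 to 253) CPM in smoke and 332 (309 to 355) CPM in aneurysm, 1.44-fold higher (1.28 to 1.62). Its 2 clusters differed from each other more than the libraries did. Cluster 18, led by Car3, was at 369.6 and 463 CPM, and cluster 27, led by the brown fat genes Ucp1 and Cidea, at 81.7 and 128 CPM. Endothelial-like nuclei were at 34.5, 33.8 and 35.3 CPM of Adamts12, with overlapping intervals. Inside that class cluster 7 was 5.75-fold higher (3.36 to 9.77) in aneurysm than in smoke, the same cluster in which Adamts9 was higher.

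Adam12 had its highest levels in adipocyte-like nuclei and in cluster 9, and differed between libraries in fibroblast-like and endothelial-like nuclei. In adipocyte-like nuclei it was at 919.9 (878 to 963) CPM in smoke and 1090.1 (1049 to 1132) CPM in aneurysm, 1.19-fold higher (1.12 to 1.26). Here the order of the clusters was the reverse of that for Adamts12: cluster 27 was at 1186 and 1831 CPM, and cluster 18 at 672 and 615 CPM. In cluster 27 the aneurysm library was 1.54-fold higher (1.43 to 1.67) than smoke, and in cluster 18 it was 1.09-fold lower (0.988 to 1.21). Cluster 9 was at 719, 704 and 564 CPM, within 1.5-fold.

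In fibroblast-like nuclei Adam12 was at 177 (159.5 to 197) CPM in the room air library, 221 (207 to 236) CPM in the smoke library and 55.0 (43.6 to 68.6) CPM in the aneurysm library. The aneurysm library was 4.01-fold lower (3.19 to 5.12) than smoke and 3.22-fold lower (2.52 to 4.16) than room air. Under other settings aneurysm was 1.66-fold lower than smoke at the least. In this class 50% of the UMIs came from 10 of 496, 13 of 670 and 8 of 729 nuclei, so these intervals are too narrow. Thinned shares of nuclei with a UMI were 9.20% (6.65 to 12.3), 11% (8.66 to 13.8) and 4.28% (2.60 to 6.60), with the aneurysm library lowest, and unthinned shares were 17.3%, 19.6% and 5.76%. In endothelial-like nuclei it was the smoke library that stood low, at 295 (287 to 304) CPM in the room air library, 172 (166 to 178) CPM in the smoke library and 289.5 (271 to 309) CPM in the aneurysm library. Smoke was 1.72-fold lower (1.64 to 1.80) than room air, aneurysm was 1.69-fold higher (1.56 to 1.82) than smoke, and aneurysm over room air was 0.981 (0.912 to 1.05). The thinned shares were 10.1% (8.73 to 11.6), 7.36% (6.28 to 8.57) and 10.5% (8.38 to 12.9), a difference smaller than that in CPM. Smoke was 1.45-fold lower than room air at the least, and under 1.5-fold in 3 of 16 other settings, and after thinning aneurysm was 1.22-fold higher than smoke. Few nuclei carry these UMIs: 50% came from 38 of 1876, 30 of 2111 and 11 of 1013 endothelial-like nuclei. Lymphatic endothelial-like nuclei were at 414 CPM in smoke and 92.9 CPM in aneurysm, 4.45-fold lower (2.45 to 8.87). T or NK-like nuclei were also lower in smoke, at 245 and 140.1 CPM, 1.75-fold lower (1.40 to 2.17), but 1.38-fold lower at the least with no filter on nuclei or no mitochondrial limit. Smooth muscle-like nuclei were at 27.9, 47.8 and 28.8 CPM, where smoke appeared 1.71-fold higher (1.28 to 2.32) than room air, but 4 nuclei held 50% of the smoke UMIs, the difference was lost in 8 of 15 other settings, and the ratio was 0.172 when the libraries were clustered one by one.

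**Figure D3:**
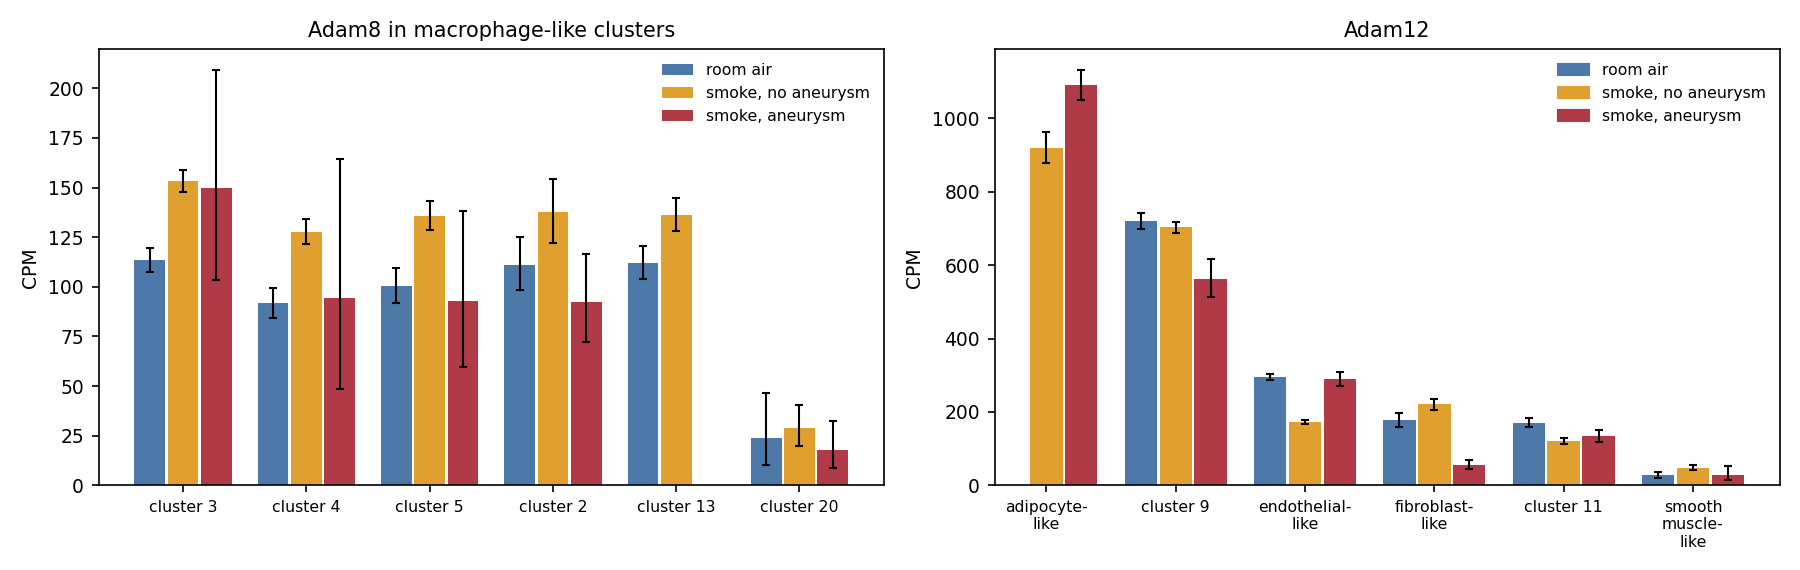
Adam8 in CPM in 6 macrophage-like clusters and Adam12 in CPM in 6 classes or clusters, 1 bar per library with 95% Poisson intervals. Adam8 is lowest in cluster 20 in every library, and Adam12 in fibroblast-like nuclei is lowest in the aneurysm library.

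Adam8, a shedding protease of myeloid cells, was concentrated in macrophage-like nuclei and was lowest there in the aneurysm library. The levels were 106 (102 to 109) CPM in the room air library, 137 (134 to 140.2) CPM in the smoke library and 78.0 (66.5 to 91.0) CPM in the aneurysm library. Aneurysm was 1.76-fold lower (1.5 to 2.06) than smoke and 1.36-fold lower (1.16 to 1.60) than room air, and smoke was 1.29-fold higher (1.24 to 1.35) than room air. Thinned shares of nuclei with a UMI were 8.30% (7.55 to 9.09), 11.6% (10.8 to 12.4) and 6.45% (4.81 to 8.43), with unthinned shares of 32.9%, 46.2% and 9.90%. The clusters of the class did not all share this order. Cluster 3 was at 114, 153 and 149.7 CPM, and there aneurysm over smoke was 0.977 (0.675 to 1.37), from 87 aneurysm nuclei. Cluster 20, led by F13a1, Cd163 and Mrc1, was low in all libraries at 23.7, 28.8 and 17.8 CPM, and it held 99 of 5342, 222 of 6193 and 334 of 1252 macrophage-like nuclei. With the largest cluster alone or with the clusters weighted alike, the aneurysm over smoke difference of the class no longer reached 1.5-fold, and was 1.26-fold lower at the least. Most room air and smoke nuclei of the class lay in clusters 3, 4 and 5, and most aneurysm nuclei in clusters 2 and 20.

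Other classes held Adam8 at lower levels. Dendritic-like nuclei were at 40.5 and 63.1 CPM for room air and smoke, 1.56-fold higher (1.23 to 1.99) in smoke, and had too few aneurysm nuclei to measure. That difference was under 1.5-fold in 5 of 16 other settings, at 1.14-fold higher at the least. Fibroblast-like nuclei were at 11.3, 20.0 and 6.97 CPM and smooth muscle-like nuclei at 9.14, 17.1 and 8.65 CPM, with 10 and 3 aneurysm UMIs. Smoke was 1.77-fold higher (1.11 to 2.96) than room air in the first of these and 1.87-fold higher (1.12 to 3.24) in the second. These were lost in 4 of 15 and 6 of 14 other settings, down to 1.12-fold higher and 1.07-fold higher. Summed macrophage markers moved with Adam8 in both classes: they were at 798, 1269 and 375 CPM in fibroblast-like nuclei and 729.8, 1097 and 594 CPM in smooth muscle-like nuclei, with at least 11 of 14 markers present, against 5632, 6849 and 6488 CPM in macrophage-like nuclei. In endothelial-like nuclei Adam8 was at 13.8, 16.0 and 8.17 CPM and the macrophage markers at 677, 966 and 379 CPM. Aneurysm was 1.96-fold lower (1.30 to 3.07) than smoke there, a difference lost in 3 of 16 other settings and turned to a ratio of 1.05 after thinning. Their part in the Adam8 values of these classes was not tested.

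Adam17, the enzyme that releases tumour necrosis factor, differed little between libraries in the main classes. In macrophage-like nuclei it was at 183 (178 to 187) CPM in the room air library, 167 (164 to 171) CPM in the smoke library and 188 (170.0 to 208) CPM in the aneurysm library, with thinned shares of 16.9% (15.9 to 18), 14.9% (14.0 to 15.9) and 16.8% (14.2 to 19.7). Endothelial-like nuclei were at 64.5, 67.1 and 75.2 CPM, fibroblast-like nuclei at 79.4, 89.4 and 68.3 CPM and smooth muscle-like nuclei at 80.5, 69.7 and 74.9 CPM. No named class differed by 1.5-fold between smoke and room air or between aneurysm and room air. Larger differences were found in small groups of nuclei: macrophage-like cluster 4 was 2.64-fold higher (2.03 to 3.38) in aneurysm than in smoke, from 64 UMIs in 59 nuclei, and lymphatic endothelial-like nuclei were 4.57-fold lower (1.42 to 23.4) in aneurysm, from 29 and 3 UMIs.

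The 9 genes were also counted by class, beside the shares of all genes past the same 1.5-fold. No test compares these shares. A gene is counted where the 2 libraries together held at least 20 UMIs in the class. Smoke against room air, endothelial-like nuclei had 2 of 9 higher (Adamts1, Adamts9) and 2 lower (Adamts4, Adam12), where 14.4% of all genes were higher and 3.40% lower. Fibroblast-like nuclei had 2 of 9 higher (Adamts1, Adam8) and 1 lower (Adamts4), beside 15.7% and 4.99% of all genes. Smooth muscle-like nuclei had 4 of 8 higher (Adamts1, Adamts9, Adam8, Adam12) and 1 lower (Adamts2), beside 15.0% and 5.63%. Macrophage-like nuclei had 0 of 8 higher and 1 lower (Adamts12, at 4.77, 2.96 and 14.8 CPM), beside 10.8% and 5.51%. Dendritic-like nuclei had 2 of 7 higher (Adamts1, Adam8) and 1 lower (Adamts12), beside 12.2% and 4.95%, and T or NK-like nuclei had 1 of 6 higher (Adamts1) and 2 lower (Adamts2, Adam12), beside 16.6% and 10.9%. Of these, 4 rest on intervals that include 1: Adamts1 in T or NK-like nuclei, 3.17 (0.787 to 27.7) from 2 room air and 24 smoke UMIs, Adamts2 there, 0.572 (0.279 to 1.24), Adamts1 in dendritic-like nuclei, 1.83 (0.994 to 3.64), and Adamts4 in fibroblast-like nuclei. Adamts1 in dendritic-like nuclei fell to a ratio of 0.914, Adamts4 in fibroblast-like nuclei to 1.27-fold lower and Adamts12 in macrophage-like nuclei to 1.33-fold lower under other settings. The median log2 ratio of the members was 0.06, -0.18, 0.26 and -0.09 in the first 4 of these classes, and that of all genes was 0.10, 0.09, 0.08 and 0.02.

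Aneurysm against smoke, endothelial-like nuclei had 5 of 9 higher (Adamts2, Adamts4, Adamts5, Adamts9, Adam12) and 1 lower (Adam8), beside 11.9% of all genes higher and 20.2% lower. Fibroblast-like nuclei had 1 of 9 higher (Adamts5) and 3 lower (Adamts4, Adam8, Adam12), beside 14.5% and 20.5%. Smooth muscle-like nuclei had 2 of 8 higher (Adamts5, Adamts12) and 2 lower (Adam8, Adam12), beside 14.7% and 25.1%. The Adamts5 ratio there, 1.53 (1.00 to 2.26), has an interval that reaches 1, and the Adam8 ratio, 0.507 (0.102 to 1.54), and the Adam12 ratio, 0.604 (0.285 to 1.13), have intervals that include it. These were lost in 5 of 15, 3 of 14 and 4 of 14 other settings. Adamts2 and Adamts5, densest in fibroblast-like nuclei, were low in endothelial-like nuclei, at 5.43 and 7.04 CPM in smoke and 16.3 and 22.2 CPM in aneurysm. The part of RNA from other cells in these values was not tested. Adamts2 in endothelial-like nuclei fell to 1.37-fold higher at Leiden resolution 2. Macrophage-like nuclei had 6 of 8 higher and 1 lower (Adam8), beside 22.6% and 14.9%. Adipocyte-like nuclei had 0 of 8 higher and 3 lower (Adamts1, Adamts2, Adam8), beside 14.7% and 25.0%, with Adamts1 1.42-fold lower without the nucleus with most UMIs. Lymphatic endothelial-like nuclei had 1 of 6 higher (Adamts9) and 2 lower (Adam12, Adam17), beside 14.7% and 24.0%. The median log2 ratio of the members was 0.75, -0.16, 0.03 and 1.85 in endothelial-, fibroblast-, smooth muscle- and macrophage-like nuclei, and that of all genes was -0.02, 0.00, -0.09 and 0.06. In adipocyte-like nuclei the members' median was 0.10, and all genes were shifted to -0.11.

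Aneurysm against room air, which shares a library with each of the other comparisons, had 4 of 9 members higher (Adamts1, Adamts2, Adamts5, Adamts9) and 1 lower (Adam8) in endothelial-like nuclei, beside 15.6% of all genes higher and 14.1% lower. Fibroblast-like nuclei had 2 of 9 higher (Adamts1, Adamts5) and 3 lower (Adamts4, Adam8, Adam12), beside 18.1% and 14.0%. Smooth muscle-like nuclei had 3 of 8 higher (Adamts1, Adamts9, Adamts12) and 1 lower (Adamts2), beside 15.9% and 21.4%. Macrophage-like nuclei had 6 of 8 higher and 0 lower, beside 22.0% and 13.6%. Some of these directions turned under another processing: the aneurysm over room air ratio fell to 0.870 for Adamts1 in fibroblast-like nuclei, to 0.968 for Adamts2 in endothelial-like nuclei and to 0.893 for Adamts12 in smooth muscle-like nuclei. It reached 1.34 for Adam8 in endothelial-like nuclei and 1.06 for Adam8 in fibroblast-like nuclei, whose interval, 0.618 (0.263 to 1.35), includes 1.

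The members higher in macrophage-like nuclei of the aneurysm library were those found mainly in other cells: Adamts1, Adamts2, Adamts5, Adamts9, Adamts12 and Adam12. They ranged from 11.5 to 19.1 CPM there and from 1.29 to 6.89 CPM in the macrophage-like nuclei of the room air and smoke libraries. Adamts9 had the highest aneurysm over smoke ratio of the 6, at 1.33, 1.29 and 12.4 CPM, from 45, 71 and 26 UMIs. For Adamts12, the largest cluster of the class had 0 UMIs in the aneurysm library, and after thinning aneurysm was 1.47-fold higher than room air, under 1.5-fold. All of these levels are far under those of the same genes in their main classes. Markers of other cells in macrophage-like nuclei moved the same way: summed fibroblast markers were at 182, 197 and 294 CPM (11 of 11 present in each library), smooth muscle markers at 35.8, 38.8 and 97.2 CPM and endothelial markers at 135, 135 and 173 CPM (9 of 9 present), while adipocyte markers were at 393, 498 and 352 CPM. Striated muscle markers were at 9.48, 14.9 and 547 CPM, where in the aneurysm library 2 of 7 had a UMI and the defining Myh1, Myh4, Ckm and Acta1 were at 0. The part of these in the higher levels was not tested.

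The wider Adamts family, 19 genes with 6 of the members among them, leaned to higher levels in endothelial-like nuclei of the aneurysm library. Its counts include the members already counted above. The shares of all genes given above for each class and comparison are the background of the counts of this and the other lists, which were chosen with results of these data known. Values of listed genes that are not members were not recomputed under other settings, so how far they depend on the processing is not known. Of 13 measured in endothelial-like nuclei, 8 were higher and 0 lower in aneurysm than in smoke, with a median log2 ratio of 1.24 against -0.02 for all genes. The members Adamts2, Adamts4, Adamts5 and Adamts9 are among these 8, so the count is not separate from theirs. Adamts18, which is not a member, was also among the 8, at 2.05, 3.82 and 10.8 CPM. In fibroblast-like nuclei 1 of 14 family genes was higher and 4 lower in smoke than in room air, with a median log2 ratio of -0.28 against 0.09 for all genes. Adamts15, another versican-cleaving family member, stood out in that class at 283, 122 and 250.2 CPM, 2.33-fold lower (2.06 to 2.63) in smoke than room air and 2.06-fold higher (1.79 to 2.36) in aneurysm than smoke. The Adamts-like genes, which keep the matrix-binding repeats and lack the protease, had 5 of 6 higher in smoke than in room air in endothelial-like nuclei, with a median log2 ratio of 0.78. Adamtsl1 was at 6.14, 10.4 and 43.1 CPM in that class and at 45.3, 36.5 and 254 CPM in smooth muscle-like nuclei, where it was 6.94-fold higher (5.27 to 9.09) in aneurysm than smoke.

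The 13 somatic Adam genes include the members Adam8, Adam12 and Adam17, so their counts overlap with those given above. In endothelial-like nuclei 1 of 11 was higher and 3 lower in smoke than in room air. In fibroblast-like nuclei 1 of 10 was higher and 3 lower in aneurysm than in smoke. The higher gene was Adam33, a relative of Adam12, at 78.9, 75.8 and 147 CPM, 1.94-fold higher (1.62 to 2.32), while Adam12 was lower in the same class. In macrophage-like nuclei 5 of 10 were higher and 1 lower in aneurysm than in smoke, led by Adam19 at 105, 143 and 286 CPM.

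The convertases that activate these precursors and the inhibitors that block them were read from lists of 4 and 7 genes. Pcsk6, a convertase secreted into the matrix, differed most: in fibroblast-like nuclei it was at 47.5, 71.8 and 744 CPM, 10.4-fold higher (9.09 to 11.8) in aneurysm than in smoke. Pcsk5 was also higher there, from 298 to 509 CPM, and Furin was lower, from 30.9 to 13.9 CPM, so that 2 of 4 were higher and 1 lower. In endothelial-like nuclei the same 2 of 4 were higher in aneurysm than smoke, Pcsk5 from 111 to 193 CPM and Pcsk6 from 1.66 to 9.80 CPM. None of the 4 inhibitors measured in fibroblast-like nuclei differed by 1.5-fold in any comparison, with Timp3 at 318, 359 and 364 CPM. In endothelial-like nuclei Timp4 was higher and Timp2 lower in aneurysm than in smoke, the latter at 210.1, 263 and 139 CPM, 1.89-fold lower (1.71 to 2.09).

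Of the 11 listed proteoglycans and other substrates of the Adamts proteases, 7 were measured in fibroblast-like nuclei, 2 of them higher and 3 lower in aneurysm than in smoke, with a median log2 ratio of -0.40. Versican (Vcan) was at 218, 152 and 367 CPM, 2.41-fold higher (2.14 to 2.71) in aneurysm than in smoke. Fibronectin (Fn1) was at 245, 338 and 803 CPM. Vcan and Adamts5 thus had the same order of libraries in this class, with smoke lowest and aneurysm highest. In smooth muscle-like nuclei 5 of 6 substrates were lower and 0 higher in aneurysm than in smoke, with a median log2 ratio of -1.01 against -0.09 for all genes. Vcan was lowest in the aneurysm library there, at 179, 74.8 and 43.2 CPM, unlike in fibroblast-like nuclei. In endothelial-like nuclei thrombospondin 1 (Thbs1), which Adamts1 cleaves, was at 466, 575 and 204 CPM, 2.82-fold lower (2.60 to 3.06) in aneurysm than smoke, and biglycan (Bgn) at 122, 259 and 119 CPM, 2.12-fold higher (2.01 to 2.23) in smoke than room air.

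Genes of membrane proteins that Adam17 sheds were read from a list of 19. In endothelial-like nuclei 5 of 18 listed substrates were higher and 0 lower in smoke than in room air, and 1 was higher and 10 of 18 lower in aneurysm than in smoke, with a median log2 ratio of -0.64 against -0.02 for all genes. The leukocyte adhesion receptor Vcam1 was at 231, 324 and 144 CPM and the chemokine Cx3cl1 at 12.5, 20.1 and 6.21 CPM. In macrophage-like nuclei 10 of 18 were higher and 2 lower in aneurysm than in smoke, with a median log2 ratio of 0.61 against 0.06 for all genes. Tnf itself was lower, at 12.8, 9.30 and 1.91 CPM, from 4 UMIs in the aneurysm library. Rhbdf2, which carries Adam17 to the surface of immune cells, was at 80.0, 61.5 and 57.9 CPM in macrophage-like nuclei. Furin, Timp3 and Rhbdf2 were named after their values were seen.

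Of the substrates of Adam12 and Adam8, the IGF-binding protein gene Igfbp5 was lowest in room air and highest in aneurysm in fibroblast-like nuclei, at 26.9, 79.7 and 167 CPM. Smoke was 2.96-fold higher (2.22 to 4.01) than room air and aneurysm 2.09-fold higher (1.76 to 2.48) than smoke. All 3 measured genes of that list were higher in smoke than in room air in this class. In smooth muscle-like nuclei Igfbp5 was at 41.2, 126 and 60.5 CPM, highest in the smoke library. Adam12, which cleaves this protein, was lowest in the aneurysm library in fibroblast-like nuclei, as given above.

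Many nuclei carried more than 1 of the 9 genes. In fibroblast-like nuclei 71.4%, 74.2% and 48.4% of nuclei had a UMI of 2 or more members, in cluster 9 the shares were 90.4%, 93.9% and 67.6%, and in macrophage-like nuclei 26.4%, 37.9% and 6.47%. These shares are unthinned and follow the depth of the libraries, so they describe each library and are not compared between them.

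Across the 75 points made by a cluster in a library, the genes most like each member in log2(CPM + 1) were found among 11623 genes. For Adamts1 they were Vangl1 (r = 0.81), Lamb2 (r = 0.81) and Slc2a13 (r = 0.78). For Adamts2 they were Prdm6 (r = 0.87), Loxl1 (r = 0.86) and Prrx1 (r = 0.86), and for Adamts5 Abi3bp (r = 0.83), Piezo2 (r = 0.83) and Tnxb (r = 0.83). Adamts9 was most like Arhgap29 (r = 0.85), Magi1 (r = 0.82) and Galnt18 (r = 0.82). The closest to Adamts12 were Sgcd (r = 0.88), Arhgap42 (r = 0.85) and Fign (r = 0.84), to Adam12 Lamb1 (r = 0.82), Pde1a (r = 0.78) and Prkd1 (r = 0.78) and to Adamts4 Cdr2l (r = 0.73), Pde9a (r = 0.70) and Lpin3 (r = 0.68). Adam8 had the highest correlation of all, with Abcg1 (r = 0.90), Atp6v0d2 (r = 0.87) and Btk (r = 0.87), and Adam17 was nearest to Ifnar2 (r = 0.80), Med15 (r = 0.78) and Tent5c (r = 0.77). Between members, Adamts5 with Adamts12 (r = 0.72), Adamts12 with Adam12 (r = 0.71) and Adamts1 with Adamts9 (r = 0.67) were highest, and Adamts12 with Adam8 (r = -0.74) was lowest. The points share libraries and their depth, and the same cluster gives up to 3 of them, so these values are a description.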

How the data were processed

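Nuclear RNA of frozen mouse abdominal aortae was measured in 3 droplet libraries, 1 per group (room air, smoke, aneurysm), after purification on anti-nucleus beads, per the labels' protocols. The authors deposited raw UMI counts per gene and barcode. These counts came from Cell Ranger 8.0.1 per the file headers, while STAR, mm10 and an older version, Cell Ranger 2.2.0, stand in the submitters' processing notes. This conflict was not settled, so no coordinates are taken from the files. Whether introns were counted and strand was used is not stated there, so overlapping genes may share UMIs. The lowest barcode held 500 UMIs, and the libraries held 73891039, 117247048 and 15634797 UMIs.

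Barcodes with at least 500 UMIs, 300 genes and under 5% mitochondrial UMIs were kept (scanpy 1.11.5, Python 3.11.15). Scrublet marked 0 of 13189, 14859 and 7348 barcodes and so did not work, and doublets remain. From 2000 variable genes, 30 principal components and 20 neighbours, Leiden clustering at resolution 1 (igraph 0.11.9) without integration gave 29 clusters. Names needed a marker score of 0.5 and a margin of 0.25, set after seeing the data. Unnamed clusters (8, 9, 10, 11, 22, 24) are in no class. UMIs were summed per class and library where it had at least 50 nuclei, and given as CPM. A difference is at least 1.5-fold, counted where the pair of libraries held 20 UMIs or more. This is a size, not a test, and the same rule over all genes is the background. Intervals (scipy 1.17.1) are at 95%. Bounds for 0 UMIs use 3 counts. Thinning was to 1000 UMIs per nucleus, leaving out shallower ones. The script was tested on simulated data.

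All 9 members were named. Of 11 other lists, counts were taken, and up to 3 genes per list, class and comparison were named whose interval lay beyond 1.5-fold. Members, lists and rules were chosen with earlier results of these data known. For each member the 3 most correlated genes were taken over clusters and libraries with at least 20000 UMIs, among genes with at least 500 UMIs. Promoters come from RefSeq (GRCm38.p6). Each member ratio in a named class was recomputed under up to 14 other settings, and under up to 2 more that were added after seeing the data. Member ratios within clusters were recomputed without the nucleus with most UMIs of the gene, likewise added later. Ratios of the other listed genes were not recomputed.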

Additional observations from a re-analysis of the deposited data

Results flagged for a closer look

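These results are given because a member was at least 1.5-fold higher in 1 class or cluster and at least 1.5-fold lower in another under the same comparison. Both intervals had to be clear of 1. Pairs were sought among named classes, among endothelial-like clusters and among macrophage-like clusters. Only the higher and the lower unit with the interval bound farthest from 1 are given. With 1 library per group, none of these differences between classes was tested. Values are log2 ratios of CPM.

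Adam12 went in opposite directions in macrophage-like and fibroblast-like nuclei. Aneurysm over room air it was at 1.88 in macrophage-like nuclei (40 aneurysm UMIs) and at -1.69 in fibroblast-like nuclei (79 aneurysm UMIs). Aneurysm over smoke it was at 2.08 and -2.00 in the same classes. Its level in macrophage-like nuclei was low, 19.1 CPM in the aneurysm library, with at most 1 UMI in a nucleus. Other members found mainly in other cells were also higher there. Summed fibroblast, smooth muscle and endothelial markers were higher in those nuclei and adipocyte markers lower, as given above, and their part was not tested. Smoke over room air, Adam12 was at 0.78 in smooth muscle-like and -0.78 in endothelial-like nuclei. The first of these was lost in 8 of 15 other settings and turned to a ratio of 0.172 with the libraries clustered one by one. In macrophage-like clusters it was at 1.22 in cluster 2, which is shallow, from 29 room air and 59 smoke UMIs, and at -1.10 in cluster 4.

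Adamts1 differed among endothelial-like clusters. Smoke over room air it was at 0.99 in cluster 6 and -0.71 in cluster 15, which is a fold under 1.5, 1.46-fold lower (1.18 to 1.79), without the nucleus with most Adamts1 UMIs in each library. In cluster 7 it was at 1.77 for aneurysm over room air and 1.27 for aneurysm over smoke, from 35 aneurysm UMIs, and in cluster 15 it was at -1.74 and -1.03. Between classes, aneurysm over smoke was 0.74 in macrophage-like nuclei, from 24 aneurysm UMIs at 11.5 CPM, with the same limit as for Adam12 there. It was -0.85 in adipocyte-like nuclei, where aneurysm was 1.42-fold lower without the nucleus with most UMIs.

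Adamts2 aneurysm over room air was 1.31 in endothelial-like nuclei, where its level was low, and -1.08 in smooth muscle-like nuclei. At Leiden resolution 2 the endothelial-like ratio was 0.968, and the smooth muscle-like fold fell to 1.12-fold lower. Aneurysm over smoke it was 1.59 in endothelial-like and -1.63 in adipocyte-like nuclei. The adipocyte-like difference was under 1.5-fold after thinning and in the largest cluster alone, at 1.36-fold lower at the least, and the endothelial-like one was 1.37-fold higher at Leiden resolution 2. Adamts4 aneurysm over smoke was 1.24 in endothelial-like nuclei and -1.73 in fibroblast-like nuclei, on 20 and 3 aneurysm UMIs. The first was 1.47-fold higher in the largest cluster of the class alone.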

How the results depend on the processing

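No paired analysis was possible because each group has 1 library, and for the same reason no replicate could be left out. Over the named classes, members at least 1.5-fold higher and lower numbered 11 and 8 for smoke over room air, 15 and 12 for aneurysm over smoke, and 15 and 5 for aneurysm over room air. The higher count of smoke over room air was 5 with no filter on nuclei, 6 with the libraries clustered one by one and 5 after thinning. The lower count of aneurysm over smoke was 5 after thinning. The lower count of aneurysm over room air was 3 with no filter, 9 with the libraries clustered one by one, and 3 after leaving out the top 10% of Scrublet scores, after thinning or with at least 50 UMIs. Of 1973 log2 ratios recomputed for 129 combinations of member, class and comparison, 1756 lay inside the counting interval of the main ratio. Another 207 lay outside it, and 10 were set apart because they turned. Turning was counted only where the main ratio was at least 1.5-fold higher or lower, so other changes of direction are not in the 10. The interval can be wide. For Adamts1 in T or NK-like nuclei, smoke over room air, it was 0.787 to 27.7, and the recomputed ratios ran from 1.915 to 5.793. Some of the 1756 still crossed 1.5-fold, so that number does not count the differences that were kept. Those that turned were, with the libraries clustered one by one, log2 CPM ratio, Adamts1, dendritic, smoke over room air at -0.13, log2 CPM ratio, Adamts1, fibroblast, aneurysm over room air at -0.20 and log2 CPM ratio, Adam12, smooth muscle, smoke over room air at -2.54, which was -0.40 after thinning. After thinning, log2 CPM ratio, Adam8, endothelial, aneurysm over smoke was 0.076 and log2 CPM ratio, Adam8, endothelial, aneurysm over room air was 0.42. The log2 CPM ratio, Adamts9, endothelial, smoke over room air was -0.25 with clusters weighted alike. The log2 CPM ratio, Adamts2, endothelial, aneurysm over room air was -0.047 at resolution 2, log2 CPM ratio, Adamts12, smooth muscle, aneurysm over room air -0.16 at resolution 0.5, and log2 CPM ratio, Adam8, fibroblast, aneurysm over room air 0.088 with 15 principal components. The cause was not tested. Depth limits Adamts4 and all smooth muscle-like and lymphatic endothelial-like values of the aneurysm library.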
